A study of Mus musculus with 4 samples.

Results

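The 48 genes described here build and control the mitotic spindle: the kinases and cyclins that start mitosis, the kinetochore, the spindle checkpoint, the motors of the spindle and of cell division, and the proteins that fold chromosomes. They were taken by name from the deposited table of 22690 genes by a rule that uses no measured value, although the list was drawn up with earlier results of these data known. All 48 were in the table, and all 48 were among the 14480 tested, those whose normalized counts averaged 10 or more. RNA was measured in flow-sorted 4N cells, cells with a replicated genome, from retinas of C57BL/6 mice at postnatal day 2. The 2 control libraries came from GFP-negative cells of wild-type genotype. The 2 mutant libraries came from GFP-positive cells labelled Casz1 cKO, a conditional knockout of Casz1, a zinc-finger transcription factor known in retinal progenitors for its part in the order in which cell types are made. The sources used here do not give the driver of the deletion, the conditional allele or the number of animals per library. GFP and genotype differ together in these groups, so they cannot be told apart. The column names carry 2 tags, here called A and B, with 1 wild-type and 1 cKO library each; the study speaks of 2 independent experiments, and it is not stated that a tag marks an experiment.

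Background on these genes is well established. Cyclin-dependent kinase 1, joined to A- and B-type cyclins, drives entry into mitosis; Aurora and Polo-like kinases then organise the centrosomes and the spindle, and kinetochores tie chromosomes to microtubules. Unattached kinetochores hold the anaphase-promoting complex in check through the spindle checkpoint, and once every chromosome is attached that complex marks cyclin B and securin for destruction. In the newborn retina progenitors still divide while rods and other late-born neurons form, and most of these transcripts are made late in the cell cycle. Many of their promoters carry CCAAT boxes, which NF-Y binds, and a cell cycle genes homology region (CHR), which the DREAM and MuvB complexes bind.

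Promoter sequence is a feature of these genes that could be read without the libraries. RefSeq windows of 300 bases (250 before the start and 50 from it, GRCm38.p6) existed for 39 of the 48. The letters CCAAT or their complement ATTGG were in the windows of 29 of those 39 genes (74.4%), against 41.1% of 27025 genes with a window. The CHR letters TTTGAA, or TTCAAA on the other strand, were in 30 (76.9%, against 20.2%), and the variant TTTAAA, which reads the same on both strands, was in 10 (25.6%, against 14.9%). Either CHR spelling was in 33 (84.6%, against 30.6%). A CCAAT box and a CHR spelling stood in the same window in 27 of the 39 (69.2%), against 12.2% of all genes. The CCAAT and CHR letters were searched on both strands and a window was counted once for each. Mad2l1, Nuf2, Nusap1 and Ncaph held neither within these bases. The genes without a window were Smc4, Kif20a, Aurkb, Spc24, Cdc25c, Tpx2, Incenp, Wee1 and Ccna2.

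Stretches of 9 of these promoters are shown because they carry the arrangement in full or, in the last, only in part. Each runs 5′ to 3′ on the strand of its gene, from RefSeq, build GRCm38.p6, and capitals mark CCAAT or ATTGG and the CHR letters. All cover bases −130 to −1 before the start except that of Mki67, which covers −200 to −71. They lie at chr10:69352913-69353042 (minus strand, Cdk1), chr13:100786487-100786616 (minus, Ccnb1), chr4:118437344-118437473 (minus, Cdc20), chr2:164769799-164769928 (plus, Ube2c), chr7:131560240-131560369 (plus, Bub3), chr11:99024190-99024319 (minus, Top2a), chr19:37376252-37376381 (plus, Kif11), chr7:135716450-135716579 (minus, Mki67) and chr9:122950951-122951080 (plus, Kif15).
Cdk1: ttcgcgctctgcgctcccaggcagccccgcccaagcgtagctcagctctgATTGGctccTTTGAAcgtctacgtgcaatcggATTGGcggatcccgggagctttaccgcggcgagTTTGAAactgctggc
Ccnb1: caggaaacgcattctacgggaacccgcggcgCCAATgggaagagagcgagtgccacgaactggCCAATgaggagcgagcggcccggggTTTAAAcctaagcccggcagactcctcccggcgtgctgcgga
Cdc20: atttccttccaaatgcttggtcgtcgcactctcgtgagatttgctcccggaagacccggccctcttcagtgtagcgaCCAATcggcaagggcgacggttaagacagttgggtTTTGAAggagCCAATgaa
Ube2c: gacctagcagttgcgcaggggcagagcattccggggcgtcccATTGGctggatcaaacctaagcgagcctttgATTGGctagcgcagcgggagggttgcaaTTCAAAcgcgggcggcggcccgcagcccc
Bub3: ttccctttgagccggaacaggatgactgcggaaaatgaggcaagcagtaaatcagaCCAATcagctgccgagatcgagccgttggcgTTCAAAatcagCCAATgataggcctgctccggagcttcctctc
Top2a: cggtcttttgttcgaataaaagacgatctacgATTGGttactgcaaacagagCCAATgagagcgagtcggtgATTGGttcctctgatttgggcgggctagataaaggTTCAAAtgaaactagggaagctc
Kif11: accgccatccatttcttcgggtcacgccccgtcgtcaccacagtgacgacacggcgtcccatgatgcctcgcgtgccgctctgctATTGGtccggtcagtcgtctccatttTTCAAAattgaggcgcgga
Mki67: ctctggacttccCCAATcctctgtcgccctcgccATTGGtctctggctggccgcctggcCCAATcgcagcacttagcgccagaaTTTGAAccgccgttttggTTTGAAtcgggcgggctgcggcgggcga
Kif15: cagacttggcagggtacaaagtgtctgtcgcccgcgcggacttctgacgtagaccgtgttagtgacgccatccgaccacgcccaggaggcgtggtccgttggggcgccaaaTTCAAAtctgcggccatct
In the Ccnb1 stretch 2 CCAAT boxes began at −99 and −67, 32 bases apart, and TTTAAA began at −42. Cdk1 also had a pair of boxes with starts 32 bases apart, at −80 and −48, and CHR letters at −71 and −15. Top2a held boxes at −98, −78 and −58 ahead of TTCAAA at −23, and Bub3 had its CHR letters at −43, between boxes at −74 and −32. Kif11 had 1 box at −45 and TTCAAA at −19. Mki67 had 3 boxes, from −188 to −141, and CHR letters at −116 and −98. Beyond the stretches shown, Top2a also had boxes at −227, −189 and −149 and CHR letters at −179, and Cdk1 a box at −208. Kif15 had TTCAAA at −19 and no CCAAT letters in its window. A match describes the letters and is no evidence of binding here.

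**Figure D1:**
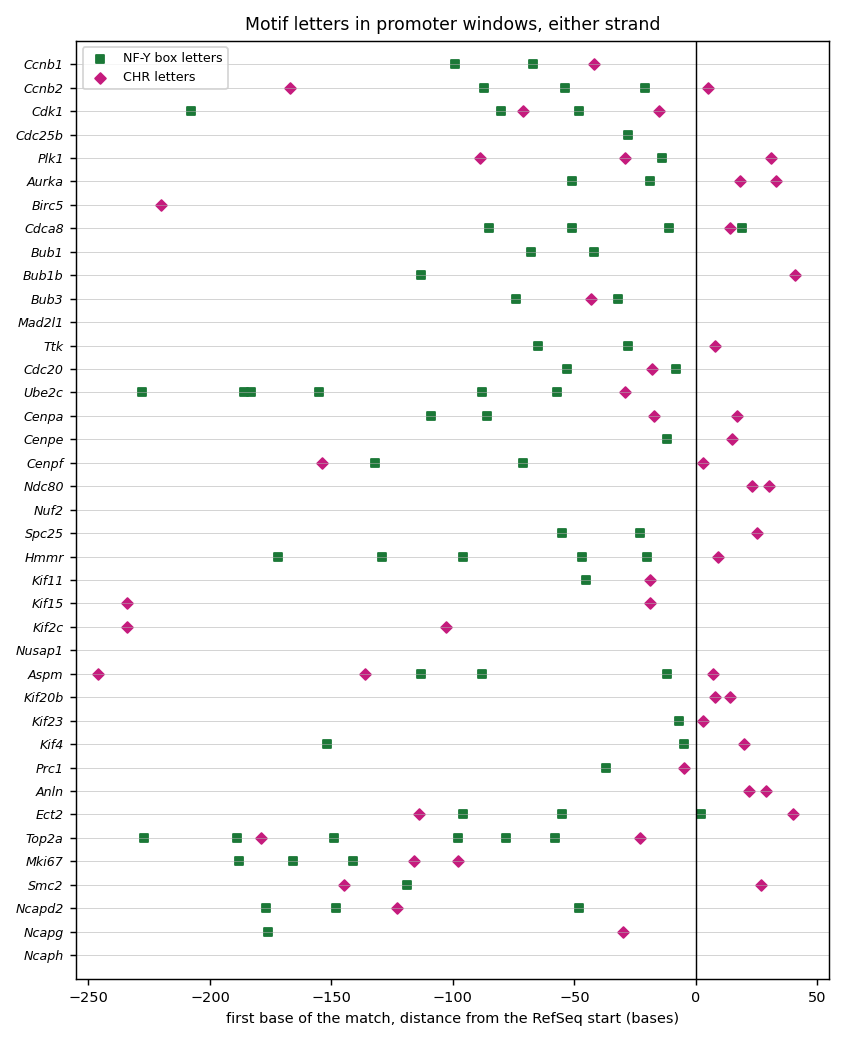
Position of motif letters in the RefSeq windows of 39 mitotic genes (1 window per gene), as the distance of the first base of each match from the start in bases. Squares are CCAAT or its complement (NF-Y box) and diamonds are either CHR spelling, on either strand; 4 genes have no match.

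Casz1 itself (ENSMUSG00000028977, GRCm38 chr4:148804429-148954889, plus strand) had normalized counts of 13162 (tag A) and 11995 (tag B) in wild type and 8687 (tag A) and 10772 (tag B) in cKO. Both cKO libraries were below both wild-type libraries, and the cKO mean was 77.3% of the wild-type mean. The log2 fold change was −0.38 (SE 0.19), with an adjusted p of 0.771 from limma. Counts over the whole gene do not separate exons that a deletion removes from those it leaves.

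The 4 libraries were of unequal depth, with 75832360 and 83753377 reads in genes for wild type A and B, 22326119 for cKO A and 89473701 for cKO B. cKO library A stands apart: its log2 values over the 14480 genes correlated with the other 3 libraries at 0.902 to 0.918, while those 3 correlated with each other at 0.988 to 0.993. It lists 9179 genes at 0, against 5793 to 6169 in the others. The mitotic genes are well covered in every library, with at least 542 reads per gene (Kif20b in cKO A), at which counting error is 4.3%. Medians and the main genes are therefore given for each tag or library, tag A being cKO A over wild type A and tag B being cKO B over wild type B.

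Mitotic transcripts were higher in the cKO libraries for 42 of the 48 genes, but the size of the difference came from 1 library. The median log2 fold change over the 48 was 0.32, against −0.03 over all 14480 genes, of which 46.7% were higher in cKO. At tag A the median log2 ratio was 0.55 (1.47-fold), with 42 genes higher, and at tag B it was 0.10 (1.07-fold), with 38 higher; over all genes these medians were −0.05 and −0.003. The wild-type libraries differed from each other by a median of −0.08 on the same scale (B over A), with single genes from −0.69 to 0.55.

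None of the 48 passed the test. Limma, with Benjamini-Hochberg adjustment over all 14480 genes, called 0 of the 48 and 0.0% of all genes at the threshold of 0.05, and no adjusted p was below 0.771. At an unadjusted p under 0.05 it had 0 of the 48 and 274 of all genes, and the smallest unadjusted p among the 48 was 0.089, for Cdk1. Counts of reads tested with edgeR and DESeq2 called none of the 48 either. In the authors' deposited table none of the 48 has an adjusted p-value under 0.05, against 51 of the 17477 genes with one (0.292%), and the smallest unadjusted p-value is 0.254, for Mad2l1. Values below are therefore given as levels and differences, and "higher" or "lower" compares values without a call.

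cKO library A had the highest value of all 4 libraries in 41 of the 48 genes (85.4%, against 37.8% of all genes) and the lowest in 6 (12.5%, against 44.7%). cKO library B lay between the 2 wild-type libraries in 31 genes (64.6%, against 38.9% of all genes), above both in 16 (33.3%, against 28.7%) and below both in 1 (2.08%, against 32.4%). Both cKO libraries were above both wild-type libraries in these same 16 genes (33.3%), where 17.2% of all genes were. That count was therefore set by cKO library B, whose own share was 33.3% against 28.7% of all genes. Both cKO libraries were below both wild-type libraries in 1 gene, Aspm, where 22.3% of all genes were. The 16 were Cdk1, Wee1, Aurkb, Birc5, Incenp, Bub1, Bub3, Mad2l1, Cenpa, Spc24, Spc25, Nusap1, Kif23, Kif4, Top2a and Smc2. The lower and upper quartiles of the tag A log2 ratio were 0.26 and 0.67 over the 48, against −0.66 and 0.34 over all genes. At tag B they were 0.04 and 0.14, against −0.13 and 0.10. In 35 of the 48 the tag B difference was smaller than the gap between the wild-type libraries, as it was in 65.3% of all genes.

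Without cKO library A the fit called 0 of the 48 in either direction, against 0.0138% of all genes called higher and 0.359% called lower. The median log2 fold change of the 48 was then 0.04, with 36 higher. Without cKO library B it called 30 of the 48 higher, against 12.9% of all genes, and 4 lower (Mki67, Cenpe, Kif20b and Kif15), against 26.9%. That fit sets 1 cKO library against 2 wild-type libraries, so the lone library is assumed to vary as wild type does, and the calls describe that library. The 48 genes made up 0.759% of the normalized counts of wild type A, 0.750% of wild type B, 0.944% of cKO A and 0.775% of cKO B. The ratios spread more at tag A (SD 0.43 over the 48) than at tag B (SD 0.08), and their order was partly shared, with a Spearman correlation of 0.56 over 48 genes that share their libraries and are not independent. The sign was the same at both tags in 44 genes, 38 higher and 6 lower.

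**Figure D2:**
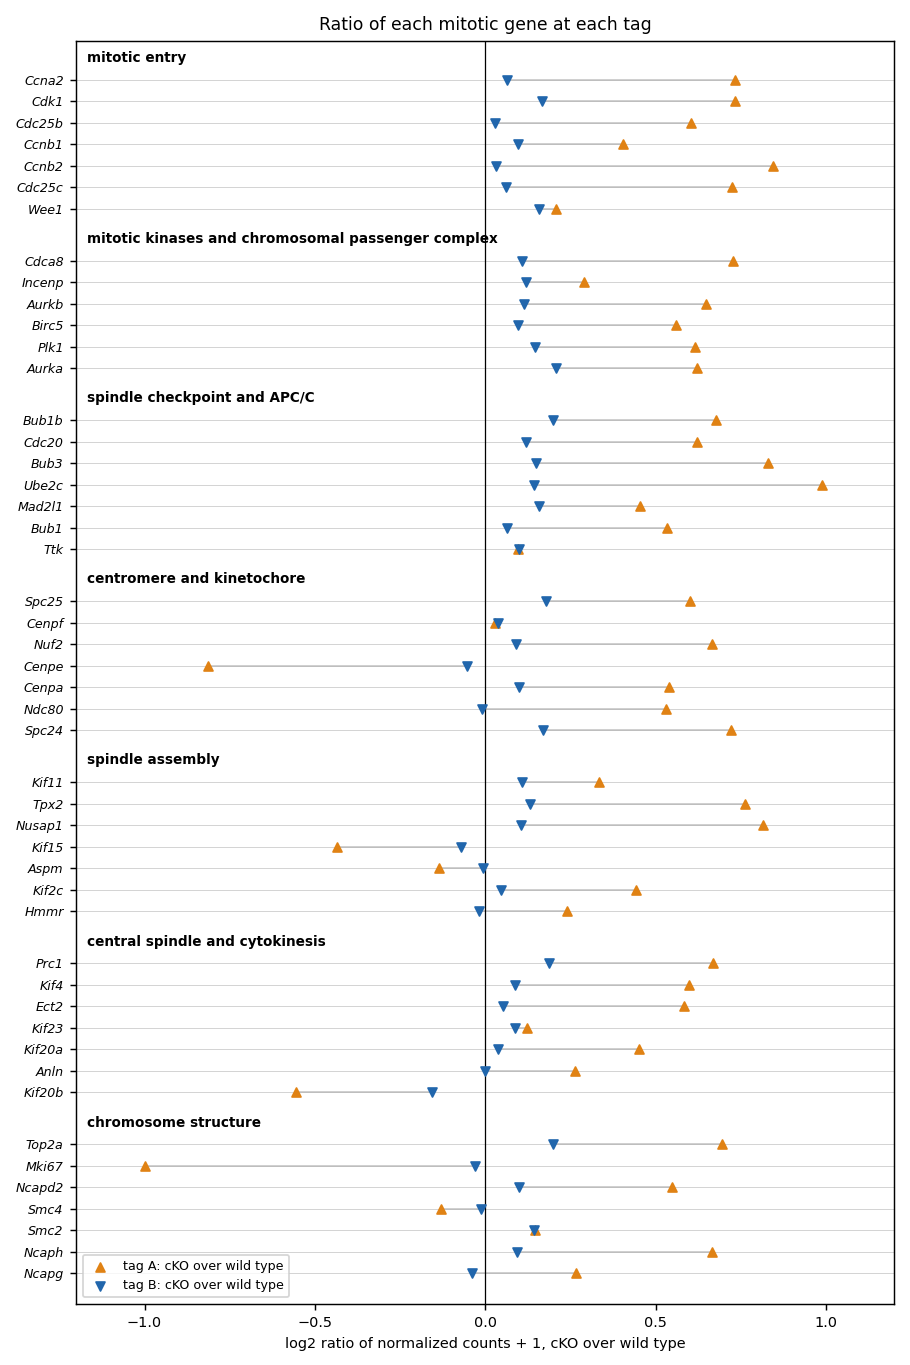
Log2 ratio of normalized counts + 1, cKO over wild type, at tag A (upward triangles) and tag B (downward triangles) for each of the 48 genes, grouped by role. Tag A runs from −0.999 (Mki67) to 0.99 (Ube2c), while tag B stays between −0.16 and 0.21.

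Genes of mitotic entry were higher in both tags without exception: 7 of 7, with a median log2 fold change of 0.39, 0.72 at tag A and 0.06 at tag B. Cdk1, the kinase at the centre of mitotic entry, had normalized counts of 8792 and 9359 in wild type A and B and 14604 and 10503 in cKO A and B. Both cKO libraries were above both wild-type libraries; the log2 fold change was 0.45 (SE 0.22). Ccna2 (cyclin A2), the most abundant of the group, had 22176 and 20741 in wild type and 36834 and 21693 in cKO, so cKO B lay between the wild-type libraries. Ccnb2 (cyclin B2) had 4529 and 4384 in wild type and 8136 and 4483 in cKO. For Ccnb1 (cyclin B1) the values were 6549 and 5774 in wild type and 8662 and 6173 in cKO, a smaller difference at tag A (0.40) than that of Ccnb2 (0.85). The ratio of Ccnb1 to Ccnb2 counts was accordingly 1.45, 1.32 and 1.38 in wild type A, wild type B and cKO B, and 1.06 in cKO A. Cdc25b and Cdc25c, phosphatases that activate Cdk1, had tag A ratios of 0.60 and 0.72 and tag B ratios of 0.03 and 0.06. Wee1, the kinase that restrains Cdk1, differed least at tag A (0.21) yet did not overlap, with 1598 and 1593 in wild type and 1844 and 1777 in cKO; it was the lowest of the 48 in mean count.

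**Figure D3:**
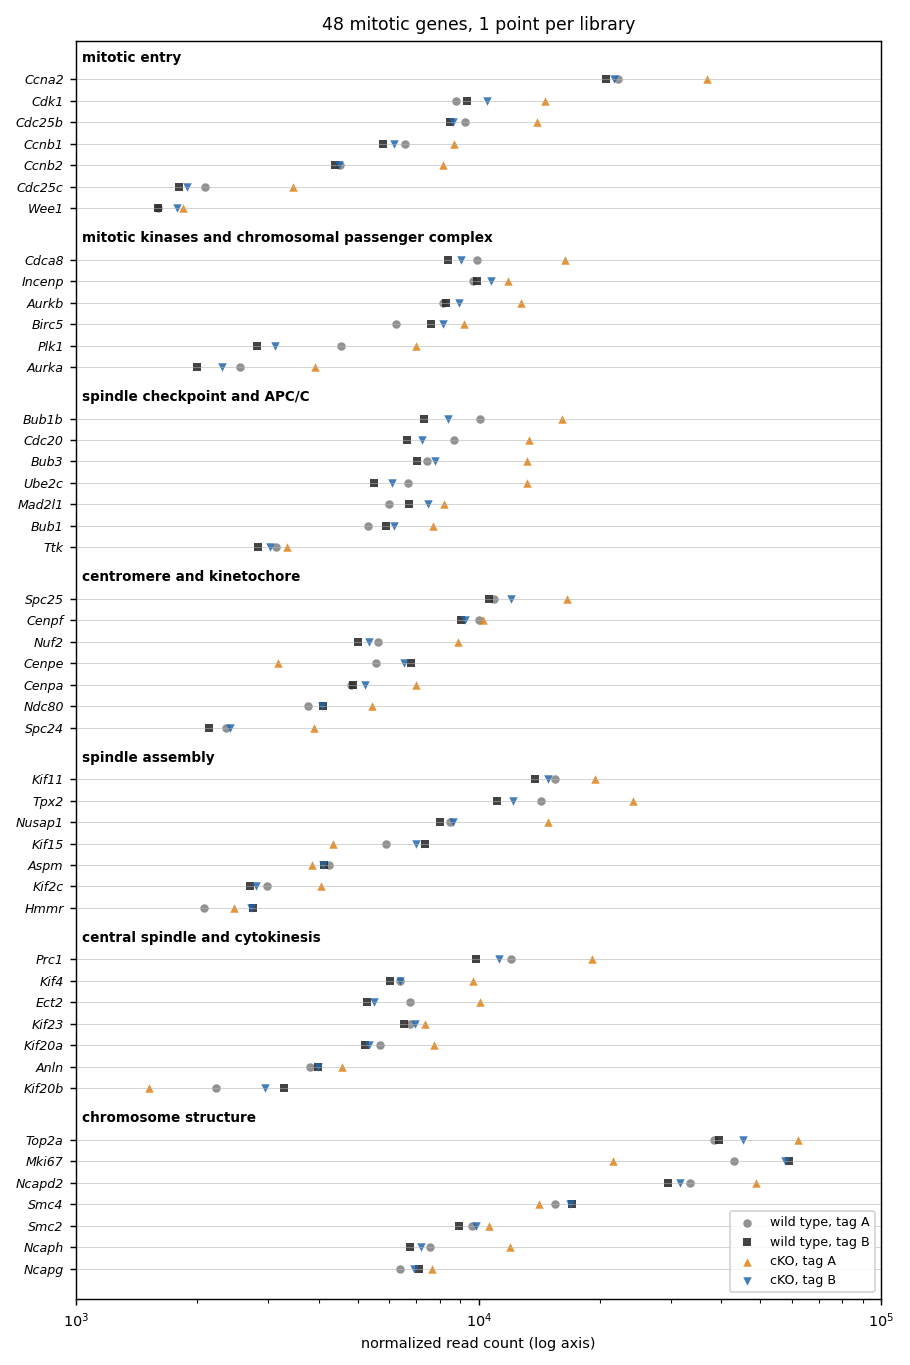
Normalized read counts (log axis) of the 48 genes, 1 point per library, grouped by role and ordered by mean within each group. cKO library A (upward triangles) lies to the right of the other 3 in 41 genes and to the left of them in 6, among them Mki67 and Cenpe.

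All 6 genes of the mitotic kinases and the chromosomal passenger complex were also higher, with a median log2 fold change of 0.38, 0.62 at tag A and 0.12 at tag B. Aurkb, the kinase of the passenger complex, which corrects faulty attachments, had 8139 and 8281 in wild type and 12760 and 8956 in cKO. Birc5 (survivin), a subunit that places the complex on chromosomes, had 6229 and 7621 in wild type and 9178 and 8148 in cKO. Incenp, its scaffold, had 9678 and 9877 in wild type and 11827 and 10725 in cKO. In these 3 genes both cKO libraries exceeded both wild-type libraries, by little at tag B (0.10 to 0.12). The wild-type libraries differed from each other by more than that for Birc5 (0.29) and by less for Aurkb and Incenp (0.02 and 0.03). Cdca8 (borealin), the fourth subunit, had 9913 and 8389 in wild type and 16387 and 9042 in cKO, so only cKO A stood outside the wild-type values. Plk1 and Aurka, which act at centrosomes and in spindle building, varied most of the 6 within wild type, by −0.69 and −0.35 (B over A). Plk1 had 4554 and 2819 in wild type against 6968 and 3118 in cKO, and the gap between its wild-type libraries (−0.69) was wider than its tag A difference (0.61).

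Checkpoint and APC/C genes were higher in 7 of 7, with a median log2 fold change of 0.37, 0.62 at tag A and 0.14 at tag B. Bub3, which brings checkpoint kinases to kinetochores, had 7439 and 7034 in wild type and 13208 and 7800 in cKO, and its groups did not overlap. Mad2l1 (Mad2), which holds Cdc20 inactive, had 5980 and 6719 in wild type and 8184 and 7494 in cKO, also without overlap. Bub1, a checkpoint kinase, was the third without overlap, with 5317 and 5878 against 7695 and 6142. In Bub1 and Mad2l1 the tag B differences (0.06 and 0.16) were smaller than the gaps between the wild-type libraries (0.14 and 0.17). In Bub3 the tag B difference was the larger (0.15, against −0.08). Bub1b (BubR1), a part of the checkpoint's inhibitor complex, and Cdc20, the APC/C activator that the complex inhibits, were high in wild type A. Bub1b had 10063 and 7309 in wild type and 16082 and 8380 in cKO. Cdc20 had 8671 and 6652 in wild type and 13344 and 7227 in cKO. For both genes cKO B lay below wild type A, and without cKO library A their log2 fold changes turned to −0.03 and −0.07. Ube2c, the ubiquitin-conjugating enzyme of the APC/C, had 6663 and 5500 in wild type and 13205 and 6076 in cKO. Its log2 fold change of 0.57 (SE 0.38) and its tag A ratio of 0.99 were the highest of the 48, and its tag B ratio was 0.14. Ttk (Mps1), the kinase that starts checkpoint signalling, differed little at either tag (0.09 and 0.10).

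At the centromere and kinetochore 6 of 7 genes were higher, with a median log2 fold change of 0.32, 0.54 at tag A and 0.09 at tag B. Spc25, a subunit of the NDC80 complex that binds microtubules, had 10943 and 10629 in wild type and 16588 and 12018 in cKO, without overlap. Spc24, its partner, had 2361 and 2142 in wild type and 3895 and 2410 in cKO, also without overlap. Cenpa, the histone that marks centromeres, was the third such gene, with 4802 and 4879 against 6971 and 5223. Ndc80 and Nuf2, the other two subunits, had tag A ratios of 0.53 and 0.66 and tag B ratios of −0.01 and 0.09. Cenpf, a large kinetochore and nuclear matrix protein, was nearly level, with 10038 and 9026 in wild type and 10235 and 9269 in cKO. Cenpe, a kinetochore motor that moves chromosomes to the spindle equator, was lower in cKO A. It had 5561 and 6773 in wild type and 3166 and 6530 in cKO, a log2 fold change of −0.43 (SE 0.36). The ratio of Cenpe to Cenpa counts was accordingly 1.16 and 1.39 in wild type, 0.454 in cKO A and 1.25 in cKO B. Cenpe has the longer transcript (7910 bases, against 1466 for Cenpa), and over all genes tag A ratios were lower in longer transcripts.

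Spindle assembly genes were less uniform, with 5 of 7 higher and a median log2 fold change of 0.22, 0.33 at tag A and 0.05 at tag B. Tpx2, which activates Aurora A and nucleates microtubules, had 14297 and 11102 in wild type and 24224 and 12157 in cKO. Nusap1, a microtubule-bundling protein, had 8469 and 8014 in wild type and 14884 and 8620 in cKO and was the one gene of the group higher without overlap. Kif11 (Eg5), the motor that pushes the spindle poles apart, had 15479 and 13785 in wild type and 19486 and 14855 in cKO. In Tpx2 and Kif11 cKO B again lay between the wild-type values. Kif15, a motor that can share the work of Kif11, was lower in cKO A, with 5866 and 7349 in wild type and 4336 and 6995 in cKO. Aspm, a spindle-pole protein known for its part in brain size, had 4236 and 4135 in wild type and 3856 and 4113 in cKO, the only gene of the 48 with both cKO libraries below both wild-type libraries. Its tag B ratio was −0.01. Kif2c, a microtubule depolymerase, and Hmmr, a spindle protein, had tag A ratios of 0.44 and 0.24 and tag B ratios of 0.05 and −0.02.

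Of the genes of the central spindle and cytokinesis 6 of 7 were higher, with a median log2 fold change of 0.24, 0.45 at tag A and 0.05 at tag B. Prc1, which bundles the central spindle, had 12012 and 9859 in wild type and 19100 and 11228 in cKO. Kif4, a motor that works with Prc1, had 6382 and 6015 in wild type and 9659 and 6392 in cKO, where cKO B exceeded wild type A by a margin far smaller than the gap between the wild-type libraries. Kif23, a subunit of centralspindlin, had 6763 and 6526 in wild type and 7360 and 6934 in cKO, a small difference of like size at both tags (0.12 and 0.09). Kif20a, Ect2 and Anln, which act in cleavage furrow formation and abscission, had tag A ratios of 0.45, 0.58 and 0.26 and tag B ratios of 0.04, 0.05 and −0.001. Kif20b, a kinesin of late cytokinesis, had 2228 and 3272 in wild type and 1514 and 2938 in cKO. Its tag B ratio of −0.16 was the lowest of the 48, though cKO B still lay between the wild-type values.

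Genes of chromosome structure were split, with 5 of 7 higher and a median log2 fold change of 0.14, 0.27 at tag A and 0.09 at tag B. Top2a, the topoisomerase that untangles sister chromatids, had 38366 and 39487 in wild type and 62047 and 45317 in cKO. Both cKO libraries were above both wild-type libraries, and its log2 fold change was 0.45 (SE 0.22). Mki67 (Ki-67), which coats mitotic chromosomes and is widely used to mark cycling cells, had 43005 and 58941 in wild type and 21523 and 57702 in cKO. Its log2 fold change was −0.51 (SE 0.48), the lowest of the 48, and without cKO library A it turned to 0.20. Both of these proliferation markers had the highest mean counts of the 48, and the ratio of Mki67 to Top2a counts was 1.12 and 1.49 in wild type A and B, 0.347 in cKO A and 1.27 in cKO B. This pair also differs in transcript length (10061 bases for Mki67 and 5221 for Top2a). Ncaph, the kleisin of condensin I, had 7565 and 6741 in wild type and 11986 and 7184 in cKO. Smc2, a core ATPase of condensin, had tag ratios of 0.15 and 0.14 and no overlap, while its partner Smc4 had −0.13 and −0.01.

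Levels per kb of transcript set the subunits of a complex side by side within a library. In the NDC80 complex Spc25 stood highest, at 9165 and 8902 normalized counts per kb in wild type A and B and 13893 and 10065 in cKO A and B. Ndc80 was at 1712 and 1864 in wild type and 2470 and 1851 in cKO, and Nuf2 and Spc24 were between 1568 and 3698 in all libraries. The ratio of Spc25 to Ndc80 per kb was 5.35, 4.78, 5.62 and 5.44 in the same order, so it was alike in all 4 libraries although both genes were higher in cKO A. In the passenger complex Birc5 was highest in wild type (6578 and 8047) and Incenp lowest (2991 and 3052). In cKO A, Cdca8 at 10078 per kb stood above Birc5 at 9692. Among condensin I subunits Ncapd2 led with 7234 and 6371 in wild type and 10568 and 6824 in cKO, and Smc2, Ncapg and Ncaph were between 1654 and 4448. Smc4 was at 3577 and 3952 in wild type and 3271 and 3916 in cKO; its ratio to Ncapd2 per kb was 0.495 and 0.620 in wild type, 0.309 in cKO A and 0.574 in cKO B. These lengths are those of 1 annotated transcript per gene. Over all genes the median tag A ratio ran from 0.33 under 1 kb to −0.42 over 8 kb. Dividing by length does not remove that trend, so the order of subunits of unlike length in cKO A is limited by it.

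**Figure D4:**
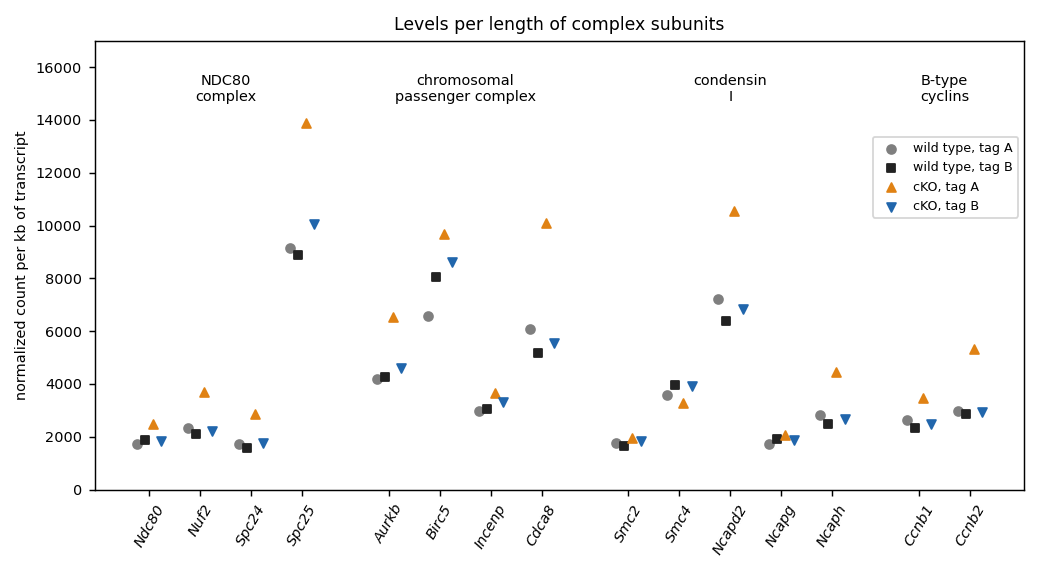
Normalized counts per kb of transcript for the subunits of 3 complexes and for the B-type cyclins, 1 point per library. Spc25 stands above the other NDC80 subunits in all 4 libraries, and Ncapd2 above the other condensin I subunits.

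The 6 genes lower in cKO have long transcripts. Their transcripts span 4316 bases (Smc4) to 10061 bases (Mki67), with 4858 for Kif15, 5564 for Kif20b, 7910 for Cenpe and 9867 for Aspm, against a median of 3317 bases over the 48. Genes of all kinds showed the same trend at tag A, where the median log2 ratio went from 0.33 in the class under 1 kb to −0.42 in the class over 8 kb; at tag B it ran from 0.10 to −0.03. Over the 48 genes the Spearman correlation of length with the tag A ratio was −0.58, against −0.20 over the 14118 genes with a length, and at tag B the values were −0.34 and −0.08. The GC content of the transcript was also correlated with the tag A ratio, at 0.46 over the 48 and 0.03 over all genes. Set against the median of their own length class, 44 of the 48 were above it at tag A (median difference 0.51) and 41 at tag B (median difference 0.10). The 2 wild-type libraries also differed with length, with a Spearman correlation for B over A of 0.35 over the 48 and −0.24 over all genes. These are correlations across genes of the same libraries, and genes are not independent. Among the 48, 9 of 12 genes of 4 to 6 kb were higher at tag A, with Top2a (5221 bases) at 0.69 and Tpx2 (4365 bases) at 0.76. From 6 to 8 kb 1 of 2 was higher, Mad2l1 (7557 bases) at 0.45, and over 8 kb 1 of 3 was. Mki67, at −0.999, was below the median of its length class, as were Cenpe, Kif15 and Kif20b. With each library corrected for the median of 7 length classes, those 4 genes were still lower, the other 44 were higher, and none passed the test. The part of transcript length or GC content in the differences between these libraries was not tested.

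**Figure D5:**
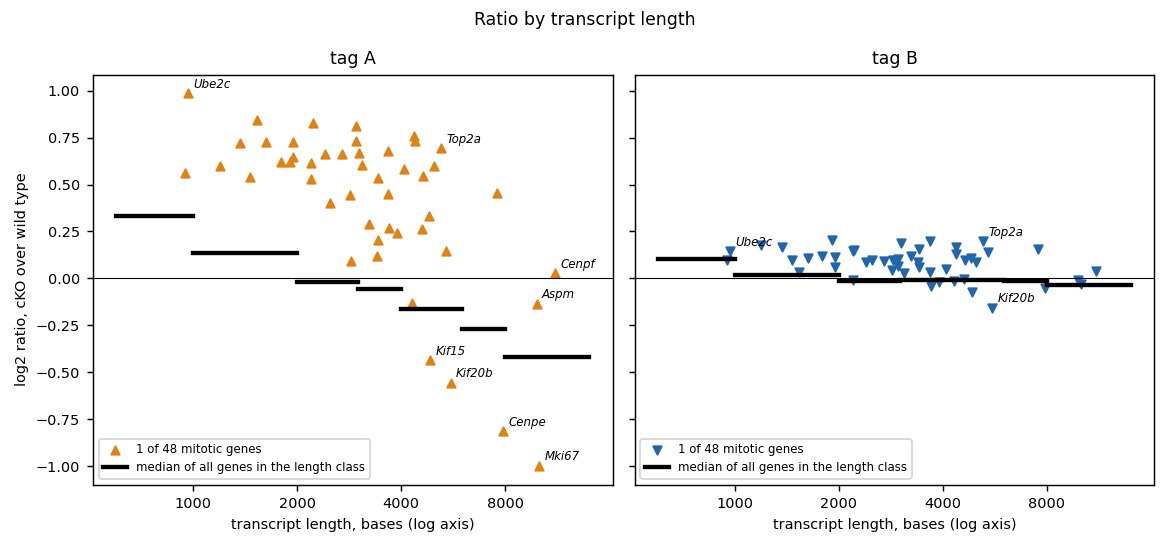
Log2 ratio of cKO over wild type against transcript length (log axis) for the 48 genes at tag A (left) and tag B (right). Black bars are medians of all genes in each of 7 length classes, from 0.33 down to −0.42 at tag A; the outermost bars stand for all genes under 1 kb and over 8 kb.

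Ratios were also set beside the promoter letters. The 27 genes with a CCAAT box and a CHR spelling in 1 window had median log2 ratios of 0.58 (tag A) and 0.10 (tag B). The 12 with a window but not both kinds of letters had 0.53 and 0.05. Among the genes of the stretches printed above, Cdk1, Ube2c, Bub3 and Top2a had tag A ratios of 0.73, 0.99, 0.83 and 0.69. Ccnb1, Cdc20 and Kif11, with the same kinds of letters, had 0.40, 0.62 and 0.33. Mki67, also with both kinds, had the lowest ratio of the 48, −0.999. Kif15, with CHR letters alone, was at −0.44.

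Other genes of mitosis are given beside the 48 for comparison, with no test of the difference between the lists. Of 126 other genes listed by function, 0 passed limma's test (0 at an unadjusted p under 0.05), 90 were higher and 36 lower, and the median log2 fold change was 0.11 (0.21 at tag A, 0.03 at tag B). Other kinetochore genes were higher in 20 of 30 (median 0.14; 0.24 at tag A and 0.03 at tag B), among them Pmf1, of the MIS12 complex, with 4252 and 4422 in wild type and 7058 and 5052 in cKO. Cenpm, of the centromere-associated network, had 1386 and 1270 against 2283 and 1575. Cenpc1, which links centromeric chromatin to the kinetochore, was low in cKO A alone, with 3832 and 3951 in wild type and 1975 and 3895 in cKO, and Zwilch, of the RZZ complex, had tag ratios of −0.34 and −0.16. APC/C, separase and cohesin genes were higher in 25 of 31 (median 0.17; 0.22 at tag A and 0.03 at tag B). Pttg1 (securin), which the APC/C destroys at anaphase, had 837 and 1072 in wild type and 1716 and 1135 in cKO, a tag A ratio (1.03) above that of all 48 genes, and Anapc13, an APC/C subunit, had tag ratios of 0.78 and 0.11. Nipbl, the cohesin loader, had 11911 and 12340 in wild type and 6398 and 11676 in cKO, and Cdc27, an APC/C scaffold, had tag ratios of −0.37 and 0.01.

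Other spindle, centrosome and cytokinesis genes were higher in 27 of 39 (median 0.06; tag A 0.11, tag B 0.04). Arhgap11a had 11082 and 10851 in wild type and 14937 and 12848 in cKO. Kifc1, a minus-end motor, had tag ratios of 0.65 and 0.07. Cep152, a centriole assembly protein, had 2265 and 3201 in wild type and 849 and 3100 in cKO, and Kif14, a cytokinesis motor, had tag ratios of −0.46 and −0.004. Other kinases, cofactors and condensin II genes were higher in 8 of 11, with a median (0.31; 0.48 at tag A and 0.11 at tag B) close to that of the 48. Pbk, a mitotic kinase, had 10404 and 9772 in wild type and 17345 and 11561 in cKO, and Cks1b, a Cdk cofactor, had tag ratios of 0.65 and 0.13. Ncapd3 of condensin II was lower at both tags (−0.70 and −0.19), and Pkmyt1, a kinase that inhibits Cdk1, was at −0.05 and −0.03. Regulators of G2/M transcription were higher in 10 of 15 (median 0.09; 0.17 at tag A and 0.01 at tag B). Rbbp4, a MuvB subunit that many chromatin complexes share, had 31447 and 35103 in wild type and 46750 and 38593 in cKO, and Nfyc, a subunit of NF-Y, had tag ratios of 0.47 and −0.02. Rbl2 (p130) and E2f5, which belong to the repressive DREAM complex, had tag A ratios of −0.11 and −0.14 and tag B ratios of −0.11 and −0.06. Over the 126 genes the groups did not overlap upward in 33 (26.2%, against 17.2% of all genes) and downward in 4 (3.17%, against 22.3%).

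Markers of the cells that the sort could hold differed between the same libraries. The summed level of 10 retinal progenitor markers was 413144 and 410308 in wild type A and B. In cKO A and B it was 598102 and 458344, and 9 of the 10 markers were higher. Ccnd1 (cyclin D1) gave most of each sum, with 235937 and 223698 in wild type and 388895 and 253407 in cKO. Its log2 fold change was 0.45. Pax6 had 48629 and 61512 in wild type and 35093 and 69539 in cKO, a log2 fold change of −0.15. The summed level of 12 rod and photoreceptor precursor markers was 158627 and 142342 in wild type and 89261 and 107580 in cKO, and 11 of 12 were lower at both tags, Crx with a log2 fold change of −0.60 and Otx2 with −0.40. For 12 microglial markers it was 21042 and 19586 in wild type and 1213 and 8768 in cKO, all 12 lower at both tags; Csf1r had a log2 fold change of −2.59 and Ctss of −2.78, and 1 of the 12 is at 0 in cKO A. Ganglion and amacrine cell markers summed to 41028 and 33905 in wild type and 36650 and 36469 in cKO. Tfap2b and Tfap2a had log2 fold changes of 0.03 and −0.02. Over the 12 markers these ran from −0.67 to 0.68, with 6 higher and 6 lower. At tag A 9 of the 12 were lower (median −0.19), while at tag B 10 were higher (median 0.17). Endothelial and mural markers summed to 44610 and 39702 in wild type and 50575 and 40661 in cKO. Kdr alone had 42492 and 37659 in wild type and 48370.5 and 38675 in cKO. The sums are therefore close to the level of Kdr and do not give that of the other markers. Kdr had a log2 fold change of 0.11 and Pdgfrb of 0.15, but 5 of the 9 tested were lower, Rgs5 at −0.75 among them. Pecam1, Cdh5 and Tek are at 0 in cKO A, where Pecam1 had 84.3 and 59.4 in wild type and 42.3 in cKO B; Rgs5 and these 3 were chosen after their values were seen. Erythroid markers summed to 104 at most, and all 7 are at 0 in cKO A; Hbb-b1 had 55.4 and 11.04 in wild type and 0 and 27.8 in cKO, and Slc4a1 was at 13.9 at most. In bulk samples fewer cells of a type and less RNA per cell cannot be told apart, and the part of these cell types in the differences of the mitotic genes was not tested.

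Some of these counts may have gained or lost reads at bases shared with a neighbour, since the strand setting of the counting is not given. The share of annotated exon bases that a gene on the opposite strand also covers was 29.3% for Kif20a (Cdc23), 22.8% for Ube2c (Tnnc2), 15.1% for Kif4 (Pdzd11), 13.4% for Ncapg (Lcorl), 12.7% for Cdc25c (Gm3550), 12.5% for Ccna2 (Exosc9) and 11.1% for Prc1 (Rccd1). Ccnb1, Ccnb2 and Kif4 have annotated processed pseudogenes of the same name, with which reads could be shared.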

How the data were processed

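Libraries were made with a stranded mRNA kit from sorted cells, per the labels. The submitters' processing notes name FastQC, TopHat, HTSeq and DESeq with the mm10 build; the sources used here give no versions, annotation release or strand setting. The authors deposited a signal for each gene in each library, namely normalized counts, of which 100% are whole multiples of 1 read's value within 0.01 reads, so reads could be recovered. Their table also holds a p-value and an adjusted p-value per gene, per the file headers. In cKO library A 3 reads equal a value of 8.38, and in the other libraries 1.98 to 2.28; these floors cover counting error only. Both cKO columns are headed replicate 2, so columns were assigned to groups and told apart by their tags A and B.

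Genes with a mean of at least 10 (14480 of 22690) were tested on log2(normalized count + 1), which understates the change of low genes, with limma 3.58.1 in R 4.3.3 (trend, two-sided, Benjamini-Hochberg, 0.05). With 2 libraries per group 2 residual degrees of freedom remain before moderation. Nothing says that the libraries of a group came from separate animals, so p-values measure the spread between these libraries, which may be technical; chi-square per degree of freedom between the libraries of a group was 74.1 in wild type and 126 in cKO. Alternatives were pseudocounts of 0.5 and 5, no filter, a mean of at least 50, median rescaling, no trend, the tag as a replicate block, edgeR 4.0.16 and DESeq2 1.42.0 on recovered reads, leaving out each library, and a correction for length classes chosen after seeing the data. The scripts were run on simulated reads with known changes and the same spread in every library. The data differ from that setting, since cKO library A stands apart, so this checks the code only. Gene positions, 1 transcript length per gene and exon overlaps come from GENCODE M21, in which 96.1% of the gene IDs were found.

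The members and all lists were chosen with earlier results of these data known. Named were Casz1, in each of 7 role groups the 2 genes with the highest mean and the 2 with the smallest p, Mki67 and Top2a, in each list of other mitotic genes the 2 with the smallest p in each direction, and in each marker list the 2 with the highest mean. Genes named beyond that were chosen after their values were seen.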

Additional observations from a re-analysis of the deposited data

How the results depend on the processing

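Limma's count of 0 genes past the threshold, over all genes and over the 48, held under both pseudocounts, both filters, median rescaling, no trend, the replicate block, edgeR and the length correction, which was chosen after seeing the data. DESeq2 called 1 gene, Nr2e3 (log2 fold change −1.18, adjusted p 0.038), and none of the 48. At an unadjusted p under 0.05 there were 274 genes with limma, 208 with edgeR, 369 with DESeq2 and 1375 with the replicate block. Leaving out 1 library at a time gave 0 to 5768 genes (54 without cKO library A, 5768 without cKO library B) and 0 to 34 of the 48 (34 without cKO library B, 0 without each of the others). The median log2 fold change of the 48 ran from 0.042 without cKO library A to 0.57 without cKO library B, and was 0.41 with median rescaling, which moved the median of all genes to 0.06. The count of higher genes among the 48 stayed between 36 and 44. Of 308 values for 22 named genes under 14 alternatives, 284 kept direction and side of the threshold, 17 passed the threshold (all without cKO library B) and 7 changed sign, all on leaving out a library. Over the 4 fits that each leave out 1 library the log2 fold change ran from −0.012 to 0.85 for Cdca8, −0.034 to 0.91 for Bub1b, −0.072 to 0.81 for Cdc20, −0.044 to 0.11 for Cenpf, −0.051 to 0.94 for Tpx2 and −1.23 to 0.20 for Mki67. The cause was not tested. Deviations of libraries with the same tag correlated at 0.26 over 14480 genes. With only 2 pairs this cannot show whether a tag marks an experiment. The replicate block called 0 genes and 0 of the 48 and left the median at 0.32. Depth limits cKO library A most, with 22326119 reads in genes.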
